A study of Mus musculus with 23 samples.

Results

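Quadriceps, a skeletal muscle of the thigh, was compared with epididymal fat, the white fat pad beside the testis, in mice that carried no tumor. The libraries were chosen by their sample records, and they were the 3 of no tumor quadriceps (replicates 1 to 3) and the 4 of no tumor fat (replicates 5 to 8) among the 23 libraries of the series. The mice were male C57BL/6J, had sham surgery at 8 weeks of age and received no tumor cells, and they were killed together with the tumor groups once a group had wasted. Libraries of the tissues carry different replicate numbers, and within a tissue each is 1 mouse. Whether the tissues came from the same mice is not stated in the sources used here. A second pair of groups is used near the end, KPC IL6KO quadriceps and KPC IL6KO fat (4 libraries each), from unedited male C57BL/6J mice of the same age at surgery whose pancreas was injected with KPC pancreatic cancer cells in which the gene Il6 had been edited with CRISPR/Cas9. The comparison asks which transcripts set the tissues apart before any tumor acts on them. Of 12599 genes listed in the count tables of both tissues, 12595 had enough counts to be tested.

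Skeletal muscle fibers contract when calcium released from the sarcoplasmic reticulum lets myosin pull on actin filaments within the sarcomere. Fibers are classed as fast or slow by the myosin, troponin and calcium pump they make, and they draw ATP from phosphocreatine, glycogen and the mitochondria. White fat stores triglyceride in adipocytes, releases fatty acids by lipolysis and secretes hormones such as leptin and adiponectin, and it also holds macrophages, vessels, fibroblasts and an outer layer of mesothelium. The epididymal pad lies against the epididymis, a duct whose lining secretes large amounts of a few sperm-coating proteins.

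A gene counted as called when its fold change (FC) between the tissues was 1.5 or more and its FDR (Benjamini-Hochberg, edgeR's quasi-likelihood test) was 0.05 or less, and a positive log2 FC means higher in quadriceps. Of 12595 genes, 3610 (28.7%) were called higher in quadriceps and 3707 (29.4%) higher in fat, together 58.1% of those tested. At an FC of at least 8, 655 genes (5.2%) were higher in quadriceps and 531 (4.22%) higher in fat. In 8459 genes (67.2%) the libraries of the tissues did not overlap. The balance depends on the scaling, since a few genes take a large part of the quadriceps libraries. The main scaling is TMM, the trimmed mean of M-values, which corrects library totals for such genes. By library totals alone, 1300 genes were called higher in quadriceps and 8212 higher in fat, the median log2 FC of all genes moved from -0.08 to -1.36, and by upper quartile scaling the counts were 2839 and 4631. Each test was repeated with 1 library left out at a time, and the named genes whose call then changed are given with their values. The position of 0 is set by TMM, and a log2 FC is relative to it.

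Quadriceps libraries held 19259763 to 53188659 counts and fat libraries 28769074 to 56308545. Levels are given as CPM, counts scaled to a common total with TMM factors over the genes of both tables, and 3 counts corresponded to at most 0.274 CPM, which covers counting error only. Genes differed between replicates by 14% (coefficient of variation) in quadriceps and by 44.6% in fat. The labels were checked against marker genes. The 5 markers of muscle fibers were all called higher in quadriceps and took 107601 to 118286 table CPM there (CPM over the total of the whole table of that tissue, without TMM), against 4.8 to 252 in fat. The 5 adipocyte markers (Adipoq, Plin1, Cidec, Lep and Lipe) did not separate the tissues. Their sum was 309.9, 942 and 164 table CPM in quadriceps 1 to 3 and 1147, 9499, 466 and 3317 in fat 5 to 8, so that fat 7 was below quadriceps 2, and 1 of the 5 was called. The fat libraries also held the genes of a list of 23 epididymal genes, which took 9.4%, 1.36%, 8.49% and 2.32% of the counts of fat 5, 6, 7 and 8. Fat 5 and fat 7 thus had most transcript of this list and least adipocyte transcript. Values for fat 6 and fat 8 alone are given beside many, but not all, of the genes that were highest in fat 5 and fat 7. Eef1a1, Rpl3, Rpl3l, Rpl10, Emx2 and Hist2h2be, for example, were also highest in fat 5 and fat 7 and are given without such a value. In bulk RNA, fewer cells of a type and less RNA per cell cannot be told apart.

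Tissue also coincides with how the libraries were made. The study's methods give TruSeq Nano DNA for muscle libraries and TruSeq Stranded mRNA for adipose libraries, while the sample records name TruSeq RNA Access for both, so the library kit may differ between the tissues. Per the sample records the RNA isolation kit also differed (the study's methods name 1 kit), as did sequencing run and replicate numbers. Tissue and these steps cannot be told apart. Of 9 tested genes of replication-dependent histones, whose mRNA mostly lacks a poly(A) tail, 7 were called higher in quadriceps and 1 higher in fat, with a median log2 FC of 2.17. Genes outside the protein-coding class took 0.406% to 0.431% of the counts in quadriceps and 0.821% to 0.963% in fat. The median log2 FC was 0.17 in the class of genes with the shortest exons (4172 genes) and -0.28 in that with the longest (4172 genes). The part of the kit in any result was not tested.

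**Figure D1:**
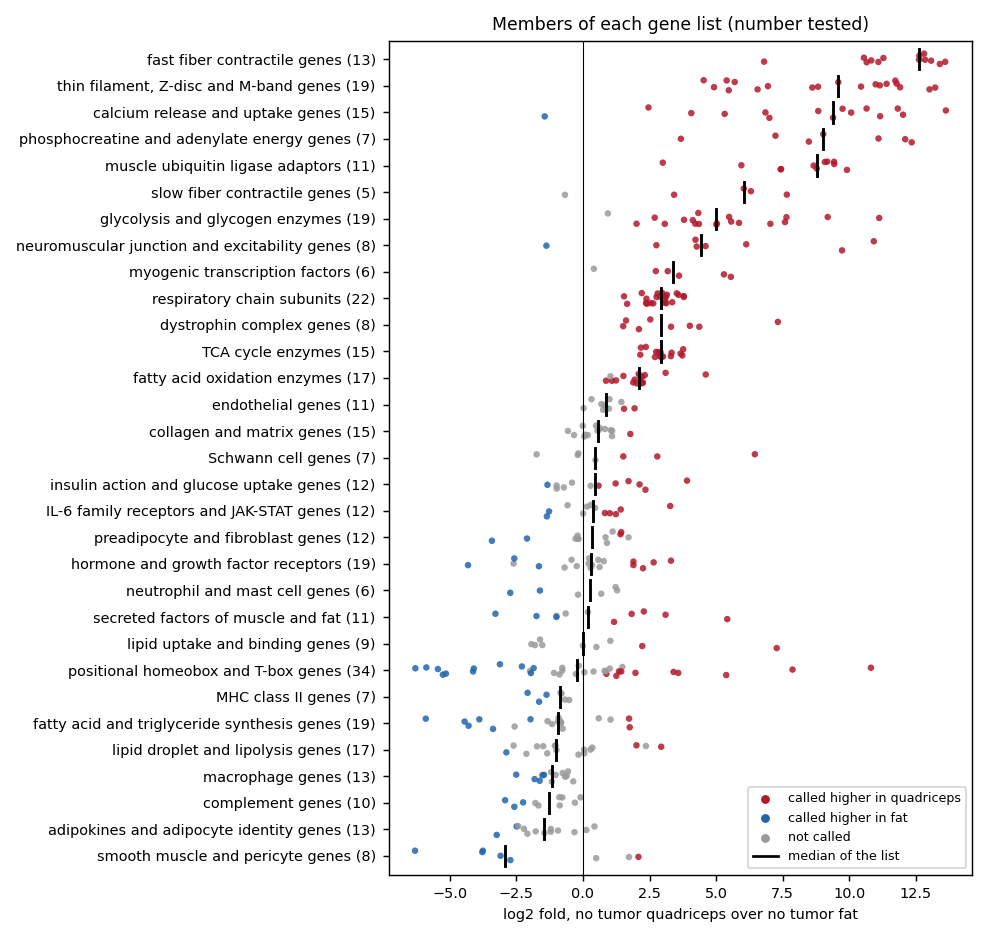
Log2 FC of the tested members of each gene list between no tumor quadriceps (n = 3) and no tumor fat (n = 4), 1 point per gene (x axis, log2 scale), with the number tested beside each list name and a black bar at the list median. Red and blue points were called higher in quadriceps and in fat, gray points were not called, and the fast fiber genes sit furthest to the right by their median (12.63), whereas most members of the adipocyte list are gray.

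Of the gene lists, the fast contractile genes had the highest median. All 13 listed fast fiber genes were at least 8-fold higher in quadriceps, with a median log2 FC of 12.63. Myh4, the myosin heavy chain of the fastest (type IIB) fibers (chromosome 11, 67238029 to 67260446, mm10), had 104783, 95649.7 and 124095 CPM in quadriceps 1 to 3 and 0, 0.344, 0.0183 and 39.2 CPM in fat 5 to 8. The quadriceps libraries lay close together and fat 8 stood above the other fat libraries. The log2 FC was 13.41 (SE 3.47, FDR 0.0122). Pvalb, a calcium buffer of fast fibers, had 26454, 21487 and 26016 CPM in quadriceps and 0.0899, 0.106, 0.146 and 7.4 CPM in fat, without overlap and again with the highest fat value in fat 8 (log2 FC 13.61, SE 2.38, FDR 0.00205). Tnnt3, the fast troponin T that anchors troponin on the thin filament, had 37176, 35571 and 44979.96 CPM against 0.15, 0.582, 0.183 and 17.1 CPM (log2 FC 13.08, SE 2.47, FDR 0.00294). The alkali light chain Myl1 (10.56), the regulatory light chain Mylpf (12.63), the calcium-binding Tnnc2 (10.84), the inhibitory Tnni2 (12.82) and the myosin-binding Mybpc2 (12.85) were called with log2 FCs of the same order, and Tpm1 (6.81), a tropomyosin also made outside muscle, had the least. The list summed to 315757, 291615 and 366467 CPM in the quadriceps libraries and to 208, 300.3, 226 and 712 CPM in fat, and without fat 8 its median log2 FC was 14.07. Per kilobase of exon, the 10 highest genes of quadriceps were Acta1, Tnnt3, Pvalb, Tnnc2, Atp2a1, Myh4, Ckm, Mylpf, Tnni2 and Myl1, from 41258 CPM per kilobase for Acta1 to 8405 for Myl1.

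Slow fiber genes varied among the quadriceps libraries. Of 9 listed, 5 were in both tables and 4 were called higher in quadriceps. Tnnc1, the slow and cardiac troponin C, had 22.7, 3.67 and 30.6 CPM in quadriceps and 0.389, 0.344, 0.0731 and 0.346 in fat, and Tnnt1, the slow troponin T, had 41.6, 8.19 and 52 against 3.59, 1.35, 3.34 and 4.27. Quadriceps 2 was lowest in both, but the tissues did not overlap (log2 FC 6.04, FDR 0.000765, and 3.42, FDR 0.0032). Mybpc1 (7.66), a myosin-binding protein of slow fibers and of some fast ones, was also called. Myh7 and Myl3, a slow myosin heavy and light chain listed in the quadriceps table alone, were lowest in quadriceps 2 as well. Myh7 had 69.7, 2.26 and 98.2 and Myl3 had 81.8, 13.4 and 57.9 table CPM in quadriceps 1 to 3. Tpm3, the slow tropomyosin gene that also makes a cytoskeletal form, had 96.8, 54.3 and 97.3 CPM in quadriceps and 175, 105, 149 and 101 in fat and was not called (log2 FC -0.68, SE 0.29, FDR 0.0774). Tpm3 was called without fat 6 (FDR 0.0422).

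All 19 tested genes of the thin filament, Z-disc and M-band were at least 8-fold higher in quadriceps (median log2 FC 9.59). Acta1, skeletal actin, had 61516, 58189 and 70413 CPM in quadriceps and 1.83, 70.1, 1.57 and 108 CPM in fat, where fat 6 and fat 8 were far above fat 5 and fat 7 (log2 FC 10.45, SE 2.08, FDR 0.00376). Ttn, the giant spring that spans the sarcomere, had 18176, 16379 and 15226 CPM against 0.629, 1.69, 1.35 and 13.4 (log2 FC 11.92, SE 1.53, FDR 0.000481). Actn3 (12.64), the alpha-actinin of fast fibers, Tcap (13.02), which caps titin, Neb (11.41), which lines the thin filament, Actn2 (11.00) and Myoz1 (13.24) of the Z-disc, and Des (5.48), the intermediate filament of muscle, were called as well. Without fat 8 the median log2 FC of this list was 9.79, and with fat 6 and fat 8 alone it was 9.38.

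Genes that couple excitation to contraction were also higher in quadriceps, with named exceptions. Of 15 tested genes of calcium release and uptake, 14 were called higher in quadriceps and 1 higher in fat. Atp2a1, the fast calcium pump SERCA1, had 69285, 64433 and 75120.2 CPM in quadriceps and 0.0599, 0.318, 0.11 and 21.2 CPM in fat (log2 FC 13.64, SE 2.91, FDR 0.00522). Ryr1, the calcium release channel, had 7812, 7227 and 8444 against 0.359, 1.43, 0.859 and 4.76 (log2 FC 12.03, SE 1.16, FDR 0.000139), and Casq1, which stores calcium in the reticulum, had 7811, 6555 and 7536 against 0.719, 6.43, 0.95 and 25.6 (log2 FC 9.75, SE 1.57, FDR 0.00142). The exception was Atp2a2, the pump of slow muscle, heart and other cells, with 169.7, 90.1 and 155 CPM in quadriceps and 429, 287, 369 and 413 in fat (log2 FC -1.44, SE 0.27, FDR 0.00293). At the nerve contact and the excitable membrane, 7 of 8 tested genes were called higher in quadriceps. The sodium channel Scn4a (10.93) and the chloride channel Clcn1 (9.74) of muscle were among them. Scn4a had 1197, 1085 and 1221 CPM in quadriceps and 0.959, 0.106, 0.676 and 0.641 CPM in fat. Lrp4, the agrin receptor of the junction, went the other way, with 26.3, 25.1 and 23.5 CPM against 116, 27.7, 79.8 and 35 (log2 FC -1.38, SE 0.51, FDR 0.0478), and with fat 6 and fat 8 alone it was not called (log2 FC -0.36, FDR 0.0864). Kcnj11, the pore of the ATP-sensitive potassium channel, had 349, 312 and 295 CPM in quadriceps and 41.5, 0.265, 23.8 and 0.436 CPM in fat, where fat 5 and fat 7 were high (log2 FC 4.27, SE 1.57, FDR 0.0465, and with fat 6 and fat 8 alone log2 FC 9.72, FDR 0.000115). Lrp4 lost its call without quadriceps 1, 2 or 3 or fat 5 or 7 (FDR 0.090 to 0.127) and Kcnj11 without quadriceps 1, 2 or 3 or fat 7 or 8 (FDR 0.0527 to 0.0913). The 8 tested genes of the dystrophin complex, which ties the fiber to its matrix, were all called higher in quadriceps (median log2 FC 2.92), from Dag1 (1.51), dystroglycan, to Sgca (7.32), alpha-sarcoglycan.

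Among transcription factors of muscle, 5 of 6 tested genes were called higher in quadriceps. Mef2c, a MADS-box activator of muscle genes, had 657, 553 and 683 CPM in quadriceps and 12, 18.7, 6.21 and 16.7 CPM in fat (log2 FC 5.56, SE 0.41, FDR 4.93e-05). Mef2d (3.61), Six4 (3.19) and Tead4 (2.74) were called too, whereas Mef2a, with 169, 157 and 183 CPM against 149.7, 91.3, 143 and 127, was not (log2 FC 0.41, SE 0.19, FDR 0.097). Of the myogenic bHLH factors, which start the muscle program, all 4 were listed in the quadriceps table alone and are not compared here. Myf6 had 64.4, 71.1 and 85.8 and Myod1 26.8, 23.9 and 16.9 table CPM. All 11 tested adaptors and ligases that tag muscle proteins for the proteasome were called higher in quadriceps (median log2 FC 8.78). Trim63, the ligase MuRF1 that rises in atrophy, had 393, 379 and 622 CPM in these tumor-free mice and 0.449, 0.212, 0.786 and 1.14 CPM in fat (log2 FC 9.44, SE 0.64, FDR 3.48e-05). Of proteasome subunits 28 of 37 were called higher in quadriceps and 2 higher in fat (median log2 FC 1.04), and by library totals alone the median was -0.26.

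Energy genes were higher in quadriceps in each list, from phosphocreatine to fatty acid oxidation. All 7 genes of the phosphocreatine shuttle, adenylate balance and oxygen store were called (median log2 FC 9.03). Ckm, the creatine kinase that rebuilds ATP at the sarcomere (chromosome 7, 19404776 to 19422841), had 48957, 46416 and 58127 CPM in quadriceps and 0.359, 9.69, 0.475 and 35.7 CPM in fat (log2 FC 12.11, SE 2.21, FDR 0.00254). Mb, myoglobin, had 4314, 3977 and 2612 CPM against 5.81, 5.96, 6.56 and 9.45, and quadriceps 3 was the lowest of the muscles (log2 FC 9.03, SE 0.40, FDR 1.22e-05). Of 19 enzymes of glycolysis and glycogen use, 18 were called higher in quadriceps and 16 by at least 8-fold (median log2 FC 5.01). Aldoa, which splits fructose bisphosphate, had 27780.3, 27344 and 33403 CPM against 357, 901, 343 and 426 (log2 FC 5.86, SE 0.69, FDR 0.000314). Pygm (11.13), which breaks down glycogen, Eno3 (9.20), the muscle enolase, Pfkm (7.59), the committed step of glycolysis, and Gapdh (5.01) were called.

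Mitochondrial genes were higher too. All 15 enzymes of the TCA cycle and all 22 respiratory chain subunits were called higher in quadriceps without overlap, with median log2 FCs of 2.91 and 2.94. The ATP synthase subunit Atp5b had 5988, 5692 and 5367 CPM against 544, 1042, 443 and 593 (log2 FC 3.12, SE 0.39, FDR 0.000426). Within fat, fat 6 was the highest and fat 7 the lowest. Sdha (2.36) of complex II and Uqcrc1 (3.79) of complex III were called too. For fatty acid oxidation 16 of 17 genes were called (median log2 FC 2.09). Without quadriceps 1 or 2 the count was 12, with fat 6 and fat 8 alone 13, and by library totals alone 9. Acadvl, the first enzyme for long chains, had 848, 807 and 678 CPM against 74, 150.3, 57.3 and 80.1 (log2 FC 3.11, SE 0.35, FDR 0.000269), and Hadha (2.24), Acadl (2.17) and Acadm (1.89) followed. The 13 muscle and energy lists kept a median above 0 under each of the 22 alternatives of scaling, test, filter and libraries. The lowest of these medians was 0.84 for fatty acid oxidation by library totals alone.

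Promoters of 4 of these genes, chosen after their values were seen, are shown because they serve the myosin motor, the calcium pump, the phosphocreatine shuttle and glycogen breakdown, which were all higher in quadriceps. The 250 bases before the RefSeq start of each gene (GRCm38.p6) were searched on both strands for 5 motifs. Of these, 4 were CAGCTG, an E-box of the kind that myogenic bHLH factors bind, CTAAAAATA, the core that MEF2 proteins bind, TATAAA, which positions the start of transcription, and TTGCNNAA, a pairing of C/EBP half-sites. None of these 4 contains another, and their matches on either strand are in capitals. The fifth was the DR1 element that PPAR and RXR bind together.
Myh4 (chr11:67237562-67237811, plus strand): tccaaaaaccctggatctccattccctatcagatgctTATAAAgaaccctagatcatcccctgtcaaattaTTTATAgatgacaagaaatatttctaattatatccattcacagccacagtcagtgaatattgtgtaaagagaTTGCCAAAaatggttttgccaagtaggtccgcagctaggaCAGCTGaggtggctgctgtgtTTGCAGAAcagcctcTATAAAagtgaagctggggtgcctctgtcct
Atp2a1 (chr7:126463074-126463323, minus strand): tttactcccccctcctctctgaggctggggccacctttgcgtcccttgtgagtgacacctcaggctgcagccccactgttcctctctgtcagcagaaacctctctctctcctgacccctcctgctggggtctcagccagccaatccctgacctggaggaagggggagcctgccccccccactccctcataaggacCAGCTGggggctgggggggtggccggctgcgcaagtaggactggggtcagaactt
Ckm (chr7:19410844-19411093, plus strand): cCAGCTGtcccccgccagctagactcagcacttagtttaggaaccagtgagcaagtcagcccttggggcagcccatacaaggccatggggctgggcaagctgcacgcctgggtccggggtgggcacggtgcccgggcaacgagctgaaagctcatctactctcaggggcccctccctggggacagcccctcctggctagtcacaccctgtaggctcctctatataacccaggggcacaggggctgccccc
Pygm (chr19:6384158-6384407, plus strand): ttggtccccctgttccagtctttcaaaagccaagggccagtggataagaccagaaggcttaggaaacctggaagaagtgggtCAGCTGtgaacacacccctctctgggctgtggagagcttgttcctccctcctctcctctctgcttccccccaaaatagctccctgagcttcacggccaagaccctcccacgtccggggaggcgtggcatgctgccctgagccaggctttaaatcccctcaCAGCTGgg
CAGCTG was present in 11.8% of the 9598 tested genes with a promoter, in 19.5% of 486 genes at least 8-fold higher in quadriceps and in 13.9% of 395 genes at least 8-fold higher in fat. CTAAAAATA was present in 0.271%, 1.44% and 0% of them, TATAAA in 6.4%, 10.3% and 5.57%, and TTGCNNAA in 7.26%, 8.23% and 6.58%. The DR1 element was present in 0.0313%, 0.206% and 0%. All 4 promoters shown hold CAGCTG, but many promoters of their lists do not. It was present in 3 of 9 promoters of the fast fiber list and 5 of 9 of calcium release and uptake. For phosphocreatine and adenylate energy it was 3 of 5, and for glycolysis and glycogen 7 of 18. A match is a description of these letters and not of a bound site.

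Many of these proteins have a close relative that other cells use, and the ratio of the relatives within a library depends little on scaling. Of 29 pairs of a muscle gene and its relative, 25 had both members in both tables. In all 25 the log2 ratio of the muscle member was higher in every quadriceps library than in any fat library, from 4.73 for Hk2 and Hk1 to 16.66 for Myh4 and the nonmuscle myosin Myh9 (difference of means of log2(CPM + 0.5), no test). All 25 muscle members were called higher in quadriceps. Of their relatives, 16 were called higher in fat, 1 higher in quadriceps and 8 were not called. For creatine kinase, the log2 ratio of Ckm to Ckb was 11.90 ± 0.33 in quadriceps and -4.0 ± 2.08 in fat (mean ± SD, n = 3 and n = 4), and Ckb by itself was called higher in fat (log2 FC -2.45). For glycogen phosphorylase, the ratio of Pygm to the liver form Pygl was 9.43 ± 0.93 in quadriceps and -4.30 ± 1.47 in fat, and Pygl was called higher in fat (log2 FC -2.41). For the translation factors Eef1a2 and Eef1a1 it was 2.06 ± 0.34 in quadriceps and -12.86 ± 1.10 in fat. Eef1a2 had 0, 1, 0 and 85 counts in fat 5 to 8, and Myh4 had 0, 13, 1 and 3061. In fat 5 to 7 the ratios of these 2 pairs are therefore set largely by the 0.5 CPM added, and their size is not a measured level. The same limit applies to other pairs, such as those of Ampd1 (0, 3 and 2 counts in fat 5 to 7), Atp2a1 (2, 12 and 6) and Actn2 (5, 6 and 11). Ckm had 12 and 26 counts in fat 5 and fat 7, under 0.5 CPM, so the size of its fat ratio also rests partly on the value added. The counts are not per length, so the sign of a ratio does not say which relative was more abundant. Eef1a1 had 615, 804 and 601 CPM in quadriceps and 6856, 3806, 6020.2 and 4062 CPM in fat (log2 FC -2.95, SE 0.40, FDR 0.000602). The ribosomal protein Rpl3 had 75.4, 96 and 76.1 CPM against 512, 329.6, 533 and 399.9 CPM (log2 FC -2.43, SE 0.23, FDR 0.000139), while its muscle relative Rpl3l had 1095, 993 and 1094 against 78.8, 4.32, 69.4 and 33.7 (log2 FC 4.51, SE 0.86, FDR 0.00318). Myh9 lost its call without quadriceps 1, 2 or 3 or fat 7 (FDR 0.0522 to 0.0917). Near-identical copies of Eef1a1, Gapdh and the ribosomal genes exist elsewhere in the genome, so their counts of uniquely mapped reads are uncertain.

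In the mitochondrion, the ADP/ATP carrier Slc25a4 was higher and Slc25a5 lower in quadriceps (log2 FC 5.42 and -1.46), and the fatty acid gate Cpt1b was higher and Cpt1a lower (4.61 and -2.81). Cpt1b had 14.5, 12.7 and 10.6 CPM in quadriceps and 0, 0.768, 0.0914 and 1.13 in fat, with 0 counts in fat 5. Cpt1a had 24.6, 24.1 and 20.3 CPM against 306, 76.2, 199 and 65.3, and it was highest in fat 5 and fat 7 (with fat 6 and fat 8 alone log2 FC -1.64, FDR 0.000353). The cytochrome oxidase pair Cox7a1 and Cox7a2 was the one in which the relative was also called higher in quadriceps (8.54 and 1.71). At the step that makes malonyl-CoA, Acacb was higher in quadriceps (log2 FC 3.72, SE 0.97, FDR 0.0129) and Acaca had 93, 146 and 63.6 CPM against 107, 465, 69.4 and 133 and was not called (log2 FC -0.94, SE 0.69, FDR 0.264). Of the fatty acid binding proteins, Fabp3 was called higher in quadriceps (log2 FC 7.28, SE 1.28, FDR 0.00211), and Fabp4, a marker of adipocytes and of capillaries, had 581, 1281 and 325 CPM in quadriceps and 1184, 7011, 446 and 2543 CPM in fat, which overlapped (log2 FC -1.94, SE 0.98, FDR 0.122).

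**Figure D2:**
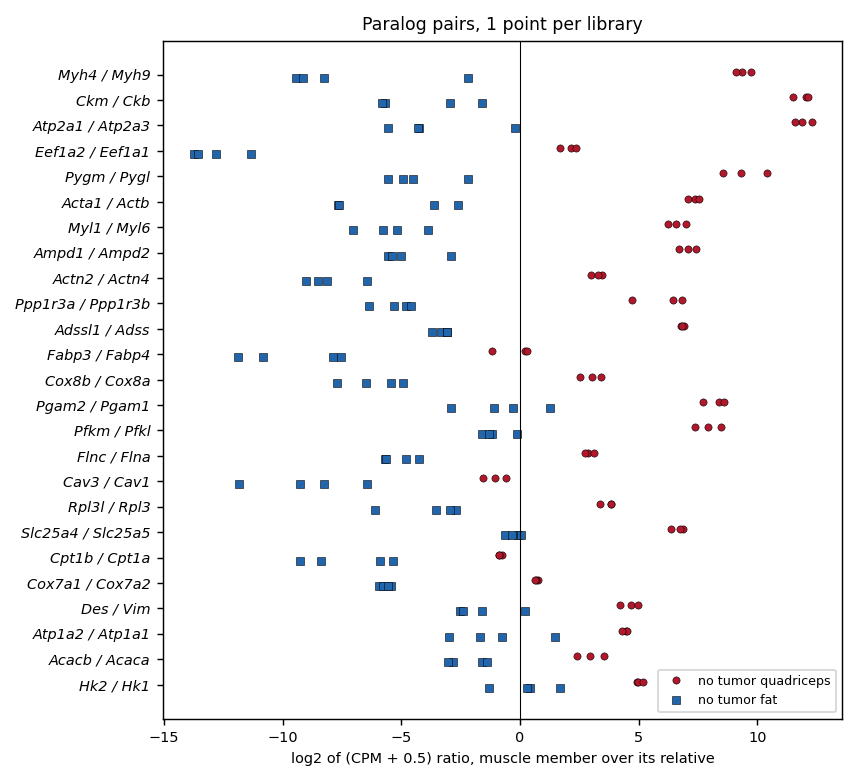
Log2 ratio of the muscle member to its relative (x axis, CPM + 0.5) for the 25 pairs measured in both tissues, 1 red point per no tumor quadriceps library (n = 3) and 1 blue square per no tumor fat library (n = 4), ordered by the difference of means. In every pair the red points lie to the right of all blue squares.

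Most adipocyte genes were not called between the tissues. Of 13 adipokine and adipocyte identity genes, 0 were called higher in quadriceps, 2 higher in fat and 11 not called. In all 13 the libraries of the tissues overlapped. Of all genes 28.7% and 29.4% were called in these directions, and in 67.2% the tissues did not overlap. By library totals alone 8 of the 13 were called higher in fat, as were 8212 of all 12595 genes. The 13 genes summed to 1158, 2901 and 581 CPM in quadriceps 1 to 3 and 1792, 10532, 767 and 4398 CPM in fat 5 to 8. Adipoq, the gene of adiponectin (chromosome 16, 23146536 to 23158028), had 127, 356 and 63.7 CPM in quadriceps and 326, 2165, 96.8 and 804 CPM in fat. Quadriceps 2 was above fat 5 and fat 7, and the difference was not called (log2 FC -2.22, SE 1.10, FDR 0.116). Lep, leptin, had 11.9, 57.6 and 15.9 CPM against 119, 725, 55.2 and 181 and was called (log2 FC -3.24, SE 1.07, FDR 0.0321), although quadriceps 2 was above fat 7. Retn, resistin, was called with an FDR at the threshold (39, 95 and 18.3 CPM against 156, 685, 60.6 and 245, log2 FC -2.49, SE 0.93, FDR 0.050). Cfd, adipsin, had 803, 2018 and 359.8 CPM against 952, 5688, 434 and 2710.2 (log2 FC -1.21, SE 0.97, FDR 0.309), and Pparg, the nuclear receptor that drives adipocyte formation, had 13, 27.5 and 8.4 against 33.1, 163, 12.5 and 70.4 (log2 FC -2.09, SE 0.88, FDR 0.0741). Fat 6 was the highest library in each of these 5 genes and fat 7 the lowest of the fat libraries. Lep lost its call without quadriceps 1 or 3 (FDR 0.0999 to 0.105) and Retn without quadriceps 1 or 3 or fat 5, 6 or 8 (FDR 0.0575 to 0.141). Adipoq was called without fat 7 (FDR 0.0474) and Pparg without fat 7 (FDR 0.0242). Without fat 7, 7 of the genes were called higher in fat. Without fat 6 the log2 FC of Lep was -2.13. With fat 6 and fat 8 alone, 7 of the 13 genes were called higher in fat (median log2 FC -2.14, against -1.45 with all 4). With fat 5 and fat 7 alone, 2 were called higher in quadriceps and 0 higher in fat (median -0.20).

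**Figure D3:**
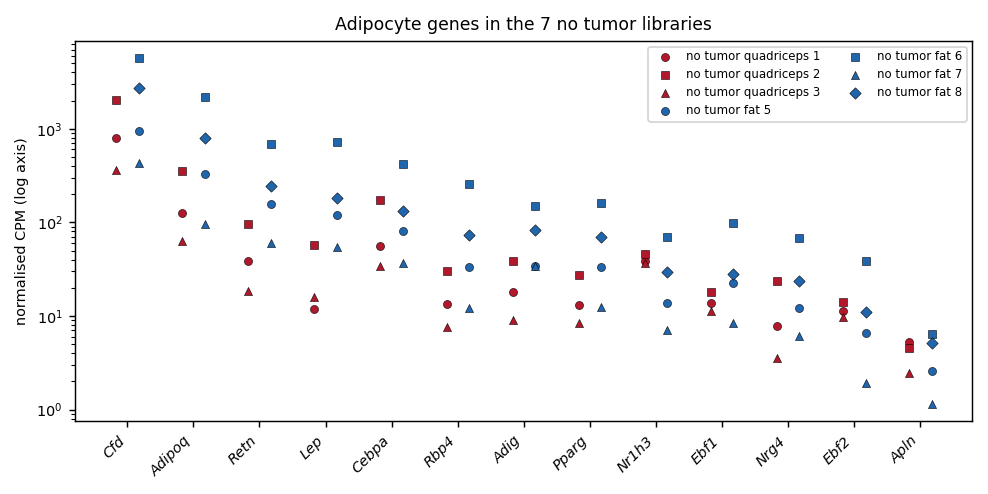
Normalised CPM (y axis, log scale) of the 13 adipokine and adipocyte identity genes in each no tumor library, with red symbols for quadriceps 1 to 3 and blue symbols for fat 5 to 8. In each gene the red and blue symbols overlap, fat 6 is the highest, and quadriceps 2 is above fat 7, as for Adipoq (356 against 96.8 CPM).

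Of 17 lipid droplet and lipolysis genes, 2 were called higher in quadriceps and 1 higher in fat, beside 28.7% and 29.4% of all genes. By library totals alone the counts were 1 and 9. Pnpla2, which starts lipolysis, had 617, 885 and 553 CPM in quadriceps and 158, 1475, 99.8 and 413 CPM in fat (log2 FC 0.35, SE 0.88, FDR 0.741), and Lipe, hormone-sensitive lipase, had 163, 399 and 90.1 against 209, 1517, 96.7 and 385 (log2 FC -1.34, SE 0.99, FDR 0.27). Cidec, which enlarges lipid droplets, had 126, 407 and 74.8 against 233, 2418, 77 and 812 (log2 FC -2.13, SE 1.21, FDR 0.161). In each of these 3 genes the tissues overlapped and fat 6 was far above the rest. Pde3b, through which insulin restrains lipolysis, was called higher in fat, with 17.8, 44.7 and 11.1 CPM against 96.5, 422, 49.3 and 157 and no overlap (log2 FC -2.88, SE 0.86, FDR 0.0224). Pde3b lost its call without quadriceps 1 or 3 (FDR 0.0756 to 0.0797). For uptake of fatty acids, Lpl had 1207, 1493 and 675 CPM against 1454, 9031, 601 and 2688 (log2 FC -1.61, SE 0.91, FDR 0.161) and Cd36 377, 425 and 224 against 470.1, 3202, 160.4 and 934 (log2 FC -1.80, SE 0.95, FDR 0.137), and neither was called. Cd36 was called without fat 7 (FDR 0.0439) and Pnpla2 without fat 6 (FDR 0.0386). With fat 6 and fat 8 alone, 7 of the 17 droplet and lipolysis genes and 4 of 9 uptake genes were called higher in fat. With fat 5 and fat 7 alone, 7 droplet and lipolysis genes were called higher in quadriceps and 1 higher in fat, and of the uptake genes 4 and 0. For the uptake genes the counts were 2 and 0 with all 4, and 2 and 5 by library totals alone. Without fat 6, 4 droplet and lipolysis genes and 4 uptake genes were called higher in quadriceps, and without fat 7 5 and 2 were called higher in fat.

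Fatty acid synthesis genes split by fat library. Of 19 genes of fatty acid and triglyceride synthesis, 6 were called higher in fat and 2 higher in quadriceps, beside 29.4% and 28.7% of all genes. Without fat 6, 4 were called higher in quadriceps, and without quadriceps 1, 2 or 3 or fat 5, 7 or 8 1 was. By library totals alone 12 were called higher in fat and 0 higher in quadriceps. Acly, which makes cytosolic acetyl-CoA, had 84, 97.4 and 64.6 CPM in quadriceps and 1282, 697, 1093 and 347 in fat (log2 FC -3.38, SE 0.50, FDR 0.000926). Scd2, a desaturase, had 57.1, 56.8 and 52.5 CPM against 1742, 614, 1554 and 935 (log2 FC -4.45, SE 0.45, FDR 0.000163). Both were highest in fat 5 and fat 7, the libraries with most transcript of the epididymis list, and both stayed called with fat 6 and fat 8 alone (log2 FC -2.69 and -3.84). Scd1 and Fasn, the desaturase and the synthase of adipocytes, were highest in fat 6 instead. Scd1 had 981, 1994 and 842 CPM against 3110.4, 21973, 1467 and 3632 (log2 FC -2.57, SE 1.05, FDR 0.0675), and Fasn had 570.4, 832 and 337 against 462, 2727, 453 and 624 (log2 FC -0.88, SE 0.75, FDR 0.335), and neither was called. Gpam (1.76) and Lpin1 (1.73), which act in triglyceride assembly, were called higher in quadriceps. Lpin1 lost its call without quadriceps 1, 2 or 3 or fat 5, 7 or 8 (FDR 0.0576 to 0.090). Scd1 was called without fat 7 (FDR 0.038). Without fat 6 the log2 FC of Fasn was 0.08.

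Genes of insulin action were called in both directions. Of 12 tested, 6 were called higher in quadriceps and 1 higher in fat (2 without fat 6), beside 28.7% and 29.4% of all genes. Without fat 8, quadriceps 1 or quadriceps 2, 4 were called higher in quadriceps. By library totals alone the counts were 2 and 6, and the list median of 0.44 became -0.84. Slc2a4, the insulin-responsive glucose transporter GLUT4, had 1141, 1085 and 1184 CPM in quadriceps and 29, 195, 14.8 and 64.3 in fat, without overlap (log2 FC 3.91, SE 0.85, FDR 0.00586). Akt2 (2.13), the kinase downstream of the receptor, was higher in quadriceps, and Pik3r1 (-1.34), the regulatory subunit of PI 3-kinase, higher in fat. The insulin receptor gene Insr had 156, 146 and 148 CPM against 114, 159, 106 and 111 and was not called (log2 FC 0.29, SE 0.17, FDR 0.173). Hk2, the hexokinase that traps glucose in muscle, had 596, 633 and 666 CPM against 198, 153, 158 and 117 (log2 FC 2.01, SE 0.20, FDR 0.000163), and Hk1 was higher in fat (log2 FC -2.96, SE 0.53, FDR 0.00234).

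Of 13 macrophage genes 5, of 7 MHC class II genes 3 and of 10 complement genes 3 were called higher in fat, and none higher in quadriceps. Of all genes 29.4% were, and the counts of these lists were 11, 7 and 9 with fat 6 and fat 8 alone. By library totals alone all 13, 7 and 10 were called higher in fat, as were 8212 of all 12595 genes. Without fat 7, 8 macrophage and 5 complement genes were called higher in fat. Lyz2, lysozyme of myeloid cells, had 74.6, 75.6 and 99.5 CPM against 112, 353, 73.8 and 210.5 (log2 FC -1.17, SE 0.52, FDR 0.0874), and Csf1r, the receptor for macrophage growth factor, had 28.7, 31.7 and 42.5 against 45.6, 102, 33.5 and 51.8 (log2 FC -0.76, SE 0.39, FDR 0.121). H2-Aa, an antigen-presenting chain, had 40.8, 45.7 and 63.5 CPM against 79.5, 240.1, 57.3 and 139 and was called although quadriceps 3 was above fat 7 (log2 FC -1.37, SE 0.50, FDR 0.0464). C3, the central complement protein, had 179, 263 and 259 against 179, 735, 138 and 659 (log2 FC -0.87, SE 0.63, FDR 0.261). B2m, the common chain of MHC class I, was called higher in fat, with 187, 187 and 107 CPM against 592, 1855, 771 and 1183 and no overlap (log2 FC -2.78, SE 0.48, FDR 0.00195). Ptprc, which marks leukocytes, was too (log2 FC -1.96, SE 0.48, FDR 0.00932). H2-Aa lost its call without quadriceps 1, 2 or 3 or fat 8 (FDR 0.0753 to 0.138). Lyz2 was called without fat 7 (FDR 0.0253).

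Of 8 tested smooth muscle and pericyte genes, 5 were called higher in fat (2 without quadriceps 1) and 1 higher in quadriceps (2 without fat 8). Of all genes, 29.4% were called higher in fat and 28.7% higher in quadriceps, beside which each list of this paragraph is given. Myh11, smooth muscle myosin, had 56.5, 62.7 and 48 CPM in quadriceps and 137, 845, 153 and 1893 CPM in fat (log2 FC -3.76, SE 1.05, FDR 0.0165). Acta2, the actin of smooth muscle, had 52.3, 67.6 and 34.3 against 137, 535, 129 and 960.4 CPM (log2 FC -3.10, SE 0.83, FDR 0.0139). Fat 8 was highest in both, followed by fat 6, the order that Mylk, the myosin kinase of smooth muscle, also showed (log2 FC -3.78). Myh11 lost its call without quadriceps 1, 2 or 3 (FDR 0.0545 to 0.0633) and Acta2 without quadriceps 1 or 3 (FDR 0.0509 to 0.0573). Rgs5, a pericyte gene, was higher in quadriceps (log2 FC 2.09, SE 0.48, FDR 0.00726). Of endothelial genes, 2 of 11 were called higher in quadriceps and 0 higher in fat. Flt1, a VEGF receptor, had 88, 91.6 and 80.7 CPM against 18.5, 46.4, 11.3 and 14.5 (log2 FC 1.94, SE 0.48, FDR 0.00972), and Cdh5, the cadherin of vessels, had 152, 162 and 119 against 33.6, 126, 15.1 and 37.8 (log2 FC 1.44, SE 0.65, FDR 0.089). The endothelial count depends on the fat libraries, with 9 called higher in quadriceps without fat 6, 11 with fat 5 and fat 7 alone and 1 with fat 6 and fat 8 alone. By library totals alone 0 were called higher in quadriceps and 1 higher in fat. Of 15 collagen and matrix genes 1 was called higher in quadriceps and 0 higher in fat. Without fat 6 these counts were 8 and 0, with fat 5 and fat 7 alone 14 and 0, and with fat 6 and fat 8 alone 1 and 2. Col3a1 had 717, 690.2 and 793 CPM against 214, 922, 189.9 and 759 (log2 FC 0.49, SE 0.59, FDR 0.489). Of 12 genes of fibroblasts and preadipocytes, 2 were called higher in quadriceps, 2 higher in fat and 8 not called (median log2 FC 0.34), with 4 and 2 without fat 6 and 7 and 2 with fat 5 and fat 7 alone. Dpp4 was higher in fat by 10.7-fold (7.25, 8.12 and 10.3 CPM against 78.6, 86.1, 111 and 89.6, log2 FC -3.42, SE 0.20, FDR 2.36e-05). Pdgfra had 38.8, 33.7 and 40.3 against 327, 55.3, 211 and 53.4, with fat 5 and fat 7 high (log2 FC -2.10, SE 0.70, FDR 0.0333). With fat 6 and fat 8 alone its FC was under 1.5 (log2 FC -0.56, FDR 0.0089). Pdgfra lost its call without quadriceps 1, 2 or 3 or fat 5 or 7 (FDR 0.0628 to 0.0988). Cdh5 was called without fat 6 (FDR 0.00141).

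The 12 genes named for the largest differences in favor of fat were chosen on these values, which are a description. The rule (mean log2 CPM of at least 5, no overlap, outside the epididymis list) gave Lcn2, Cuzd1, Ros1, Adgrg2, Tmem150c, Krt18, Cd52, Myo5b, Kcnk1, Sytl4, Bcl2l15 and Ramp3. Lcn2, a secreted lipocalin (chromosome 2, 32384633 to 32388252), had 1.13, 1.34 and 1.37 CPM in quadriceps and 3742, 48.3, 2637 and 64.3 CPM in fat (log2 FC -10.31, SE 2.19, FDR 0.0051). Fat 5 and fat 7 were high and fat 6 and fat 8 low, and with the latter alone the log2 FC was -5.51. Ros1, a receptor kinase that the epididymal lining makes, had 0.376, 0.353 and 0.183 CPM in quadriceps and 554, 1.43, 338 and 18.3 CPM in fat (log2 FC -9.44, SE 2.35, FDR 0.0103). Adgrg2, an adhesion receptor of the male duct, had 1.69, 3.35 and 1.64 against 2942, 58.5, 1879 and 24.8 (log2 FC -9.09, SE 2.14, FDR 0.00821). Both were highest in fat 5 and fat 7, as Lcn2 was, and with fat 6 and fat 8 alone the values were log2 FC -4.96, FDR 0.0126 for Ros1 and log2 FC -4.20, FDR 0.00111 for Adgrg2. Cuzd1, a protein with CUB and zona pellucida domains, was high in all 4 fat libraries (2125, 1429, 3948 and 4565 CPM against 3.32, 3.14 and 4.2 in quadriceps, log2 FC -9.73, SE 0.68, FDR 4.05e-05). Cd52, an antigen of lymphocytes and of the epididymal duct, had 15.9, 2.68 and 1.19 CPM against 189.9, 2640.01, 945 and 2069.6, lowest in fat 5 (log2 FC -7.77, SE 1.49, FDR 0.00319). Krt18, a keratin of simple epithelium and mesothelium, had 2.35, 0.282 and 0.0913 CPM in quadriceps and 292, 75.4, 311 and 264 in fat (log2 FC -7.87, SE 1.16, FDR 0.000921), and its counts are uncertain because it has near-identical copies. Krt19, of the same epithelia, had 2.1, 1.24 and 0.548 against 70.1, 79.6, 86.5 and 107 (log2 FC -5.96, SE 0.45, FDR 5.1e-05).

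All 23 epididymis genes were listed in the fat table alone and are not compared here. Gpx5, an antioxidant enzyme of the duct, had 33372, 49.5, 33898 and 5.4 table CPM in fat 5 to 8. Lcn8, a lipocalin of the duct, had 10125, 1.94, 6493 and 1.72. Crisp1, a sperm-coating protein, had 1108, 11415, 5694 and 16308, highest in fat 8 and fat 6. Of the mesothelial markers listed there alone, Upk3b had 4.66, 56.9, 8.17 and 100.5, highest in fat 8. The 11 mesothelial genes of the fat table together had 848, 475, 948 and 1301 table CPM. That sum was also highest in fat 8 but lowest in fat 6, as were its members Upk1b and Krt7. Krt8, with the largest share of those listed there alone, had 234, 107, 295 and 291 and was also lowest in fat 6. The 5 mesothelium markers (Upk3b, Msln, Wt1, Lrrn4 and Krt19) together had 94.8, 205, 129 and 330 table CPM. Their order was that of Upk3b, so members of the list did not share 1 order. Beside these, the adipocyte sum was lowest in fat 7 and fat 5. Fat 6 and fat 8 still held epididymal transcript such as Crisp1, so values for them alone do not remove it. The part of epididymal tissue in the calls was not tested beyond the values for fat 6 and fat 8 alone.

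**Figure D4:**
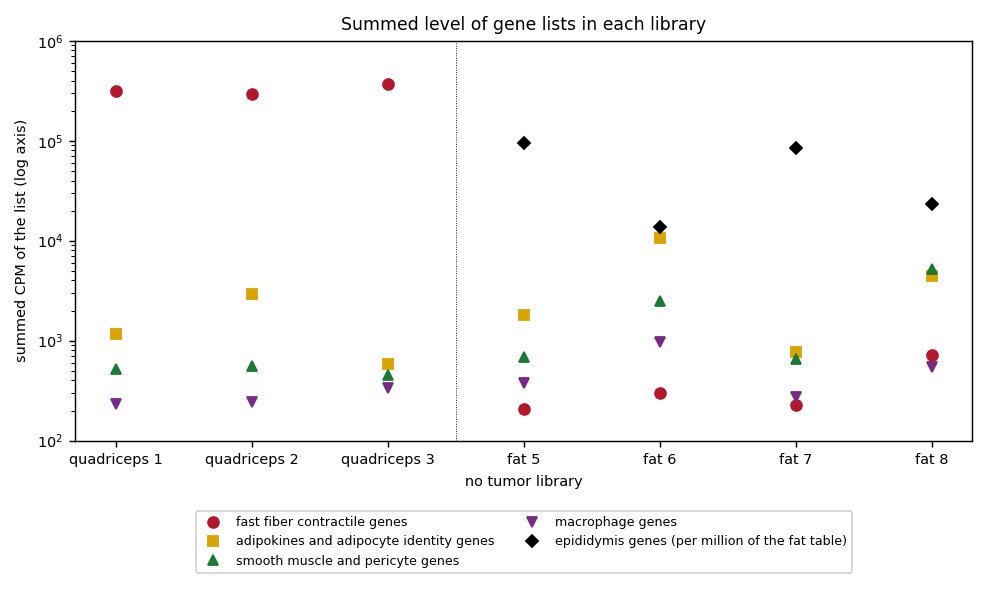
Summed level of 5 gene lists in the 7 no tumor libraries (y axis, log scale, normalised CPM, and for the epididymis genes table CPM), 1 symbol per library. Fast fiber genes separate the tissues, whereas the adipocyte sum of 767 CPM in fat 7 is below the 2901 CPM of quadriceps 2, and epididymal and adipocyte sums stand in opposite order in fat 5 and fat 7 against fat 6 and fat 8.

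Receptors were examined because the study is concerned with IL-6. Of 12 genes of the IL-6 family receptors and JAK-STAT pathway, 5 were called higher in quadriceps and 2 higher in fat, beside 28.7% and 29.4% of all genes. By library totals alone the counts were 1 and 7, and without quadriceps 1 they were 3 and 1. Il6ra, the receptor that binds IL-6, had 7.59, 9.67 and 9.31 CPM in quadriceps and 14.6, 16.7, 11.3 and 10.3 CPM in fat. All fat libraries were above all quadriceps libraries, but the gene was not called (log2 FC -0.58, SE 0.22, FDR 0.0518). Il6st, the shared signal chain gp130, had 314, 289 and 319 CPM against 111, 229.9, 88.5 and 180.4 and was higher in quadriceps (log2 FC 1.01, SE 0.33, FDR 0.0305), although by library totals alone its log2 FC was -0.26, and those of Il11ra1 and Jak1 were -0.03 and -0.46. Cntfr, the receptor for ciliary neurotrophic factor, had 64.3, 55.9 and 50.5 CPM against 5.33, 9.5, 3.91 and 4.76 (log2 FC 3.28, SE 0.32, FDR 0.000141). Socs3 (1.42), the feedback inhibitor, Il11ra1 (1.24) and Jak1 (0.82) were also higher in quadriceps, and Osmr (-1.27), the oncostatin M receptor, and Lepr (-1.36), the leptin receptor, higher in fat. Stat3, which carries the signal to the nucleus, had 115, 113 and 132 CPM against 133, 109.6, 113 and 78.8 and was not called (log2 FC 0.15, SE 0.19, FDR 0.52). Il6st lost its call without quadriceps 1, 2 or 3 or fat 5 (FDR 0.0666 to 0.083), Socs3 without quadriceps 1 (FDR 0.0584) and Lepr without quadriceps 1 or 2 (FDR 0.0567 to 0.063). Il6ra was called without fat 8 (FDR 0.0284).

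Of 19 hormone and growth factor receptors, 5 were called higher in quadriceps (8 without fat 6) and 3 higher in fat, beside 28.7% and 29.4% of all genes. Adrb3, the beta-adrenergic receptor of adipocytes, had 33.2, 62 and 6.94 CPM against 84.9, 597, 30.2 and 122 and was not called (log2 FC -2.61, SE 1.17, FDR 0.0885). Acvr2b, a receptor for myostatin and activins, had 13.7, 11.8 and 10.1 CPM against 1.74, 1.48, 2.39 and 1.91 (log2 FC 2.66, SE 0.23, FDR 9.27e-05). Adipor1 (1.89), an adiponectin receptor, and Thra (2.26), a thyroid hormone receptor, were also higher in quadriceps. Npr3, the natriuretic peptide clearance receptor, had 12.1, 21.4 and 8.95 CPM against 149.9, 785, 50.9 and 147 and was higher in fat (log2 FC -4.32, SE 1.05, FDR 0.00925). Igf1r, the receptor of insulin-like growth factor, was higher in fat as well, with 32.3, 28.6 and 34.2 CPM against 407, 43.5, 244 and 64.6 and fat 5 and fat 7 far above the others (log2 FC -2.58, SE 0.81, FDR 0.0261, and with fat 6 and fat 8 alone log2 FC -0.80, FDR 0.0185). Igf1r lost its call without quadriceps 1, 2 or 3 or fat 7 (FDR 0.050 to 0.0827). Adrb3 was called without fat 7 (FDR 0.0491). Of 11 secreted factors 5 were called higher in quadriceps and 3 higher in fat (1 without quadriceps 1). Both counts stand beside the same 28.7% and 29.4% of all genes. Fndc5, the precursor of irisin, had 194, 173 and 124 CPM against 2.55, 4.1, 1.59 and 6.96 (log2 FC 5.42, SE 0.53, FDR 0.000148), and Vegfa had 516, 474 and 393 against 139, 220.4, 94.5 and 65.4 (log2 FC 1.83, SE 0.40, FDR 0.00586). Inhbb, an activin subunit, had 3.11, 9.6 and 2.37 CPM against 100.3, 27.7, 58.7 and 13.2 and was higher in fat (log2 FC -3.29, SE 0.85, FDR 0.0123, and with fat 6 and fat 8 alone log2 FC -2.01, FDR 0.0393). Inhbb lost its call without quadriceps 1 (FDR 0.0503). Mstn, myostatin, was listed in the quadriceps table alone, with 37.3, 37 and 52.5 table CPM.

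Genes that keep the position of a tissue along the body differed in both directions. Hox genes lie in 4 clusters, and their order in a cluster follows the order of the body regions in which they are used. Of 34 tested homeobox and T-box genes, 10 were called higher in quadriceps and 11 higher in fat, which is close to the 28.7% and 29.4% of all genes, and 5 and 8 passed 8-fold. Without quadriceps 1 or 2, 5 were called higher in quadriceps. Tbx15, a T-box factor of muscle and limb (chromosome 3, 99240381 to 99354259), had 556, 459.9 and 574 CPM in quadriceps and 0.18, 0.106, 0.238 and 0.564 CPM in fat (log2 FC 10.82, SE 0.61, FDR 2.07e-05). Hoxc10, of the lumbar and hindlimb region, had 145, 145 and 187 against 0.030, 0.635, 0.256 and 1.63 (log2 FC 7.87, SE 0.96, FDR 0.000386). The hindlimb factor Tbx4 (3.58), with Hoxc9 (3.40) and Hoxa10 (1.97), were also higher in quadriceps. Hoxa10 lost its call without quadriceps 1, 2 or 3 or fat 5 (FDR 0.0646 to 0.0822).

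The anterior and middle Hoxb genes were higher in fat. Hoxb3, Hoxb4, Hoxb5, Hoxb6 and Hoxb7, which lie on chromosome 11, 96286623 to 96347930, had at most 1.77 CPM in any quadriceps library and at least 8.42 CPM in any fat library. Hoxb7 had 1.07, 0.953 and 0.639 CPM against 124, 26.5, 103 and 36.1 (log2 FC -6.30, SE 0.75, FDR 0.000349). Emx2, a factor of the urogenital tract, had 1.38, 1.31 and 1.19 against 71.1, 28.2, 75 and 54 (log2 FC -5.45, SE 0.42, FDR 5.68e-05), and Hoxd4 had 2.04, 1.91 and 2.56 against 118, 25.1, 129 and 32.8 (log2 FC -5.15, SE 0.76, FDR 0.000935). Hoxb6, Hoxb7, Hoxd4 and Hoxd8 were higher in fat 5 and fat 7 than in fat 6 and fat 8, and with the latter alone their log2 FCs were -4.80, -5.11, -3.80 and -2.13. Hoxc8 differed from its neighbors in the cluster, with 7.5, 9.71 and 4.47 CPM in quadriceps and 21.6, 80.5, 13 and 28.3 in fat (log2 FC -2.30, SE 0.67, FDR 0.0204), whereas Hoxc9 had 14.5, 14.7 and 16.5 against 0.689, 2.57, 1.1 and 1.4 (log2 FC 3.40, SE 0.43, FDR 0.000439). Hoxc8 lost its call without quadriceps 1 or 3 (FDR 0.0639 to 0.0735). Hoxb8 and Hoxb9 were listed in the fat table alone, and Lbx1, a factor of limb muscle precursors, in the quadriceps table alone.

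**Figure D5:**
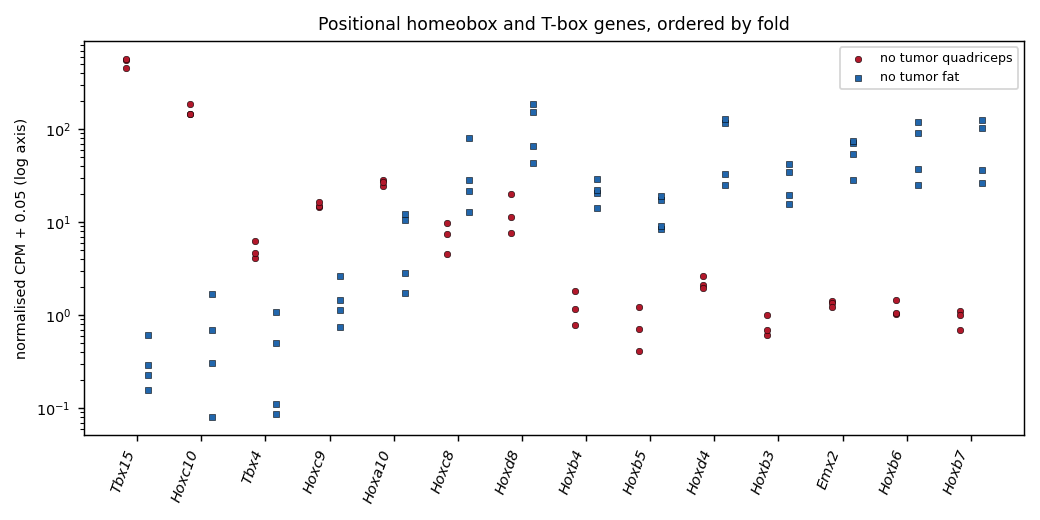
Normalised CPM + 0.05 (y axis, log scale) of the homeobox and T-box genes named here in each no tumor library, ordered from the highest to the lowest log2 FC, with red circles for quadriceps (n = 3) and blue squares for fat (n = 4). Tbx15 and Hoxc10 at the left end are far higher in quadriceps, and the Hoxb genes at the right end are far higher in fat.

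Genes in one table alone could not be compared. The quadriceps table held 232 such genes, with 0.77% to 0.801% of its counts, and that of fat held 4363, with 5.45% to 19.2%. The first by level in quadriceps were Cox6a2, the muscle form of a cytochrome oxidase subunit, with 908, 893 and 779 table CPM, Jsrp1, a protein of the calcium release junction, with 520.1, 501 and 532, and Art1, an ADP-ribosyltransferase of muscle, with 459, 443 and 464. In fat, Gpx5 of the epididymis list was first.

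The contrast was repeated in KPC IL6KO mice, which share no library with the no tumor mice. There 3752 of 12596 genes (29.8%) were called higher in quadriceps and 4231 (33.6%) higher in fat. Of the genes called higher in no tumor quadriceps, 3194 were called again, 88.5% of the no tumor list and 85.1% of the KPC IL6KO list. For genes higher in fat the overlap was 3251, or 87.7% and 76.8%. Between the lists, 4 genes were called in opposite directions. All 13 fast fiber genes were called higher in quadriceps again (median log2 FC 8.91). Adipocyte genes separated there, with 10 of 13 called higher in fat (median -2.92), as did all 13 macrophage and all 10 complement genes. Adipoq had 58.5, 10.2, 35.7 and 30.6 CPM in KPC IL6KO quadriceps 1 to 4 and 267, 335, 1175 and 472 CPM in KPC IL6KO fat 5 to 8, without overlap (log2 FC -4.06, FDR 0.000845). For Scd1 the log2 FC was -5.82 (FDR 0.000339) and for Lep -5.55 (FDR 0.00222). The tissue difference of no gene was shown to differ between the groups of mice. The interaction term of edgeR's quasi-likelihood test called 0 of 12599 genes at an FDR of at most 0.05, with 902 at an unadjusted p under 0.05.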

How the data were processed

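RNA from quadriceps and epididymal fat was sequenced by the study in separate sets of libraries. Per the labels and the study's methods, the authors aligned reads to mm10 with STAR, counted uniquely mapped reads per gene with featureCounts 1.5.1 and filtered and tested each tissue with edgeR 3.12.1. The authors deposited 1 table of raw counts per tissue, not normalised, with 12831 genes for quadriceps and 16962 for fat, and each column matched 1 sample. A further no tumor muscle sample, taken out by the authors as an outlier, is not analysed here, and some items are not reported here. The strand setting of the counting is not given in the sources used here.

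The 12599 genes of both tables were joined by symbol. Counts were TMM-scaled, filterByExpr removed 4 genes, and edgeR 4.0.16 (R 4.3.3) fitted quasi-likelihood models to the 7 no tumor libraries, with Benjamini-Hochberg FDR. The thresholds (FDR 0.05, FC 1.5) are those of the study. The SE of a log2 FC is its size divided by the square root of the F statistic. The test was checked on simulated counts with the same spread between replicates in both tissues and few changed genes. That check does not cover the unlike spread of the tissues or the large share of genes called here. Within a tissue each library is a separate mouse per the labels and the study's methods, and no 2 libraries of a tissue agreed within counting noise. Alternatives were limma 3.58.1 (voom), DESeq2 1.42.0, edgeR's robust and likelihood ratio fits, other scalings and count filters, all 23 libraries in the fit, leaving out each library, and fat 6 and 8 or fat 5 and 7 alone. Gene lists, pairs and markers were chosen with earlier results of these data known, and lists get counts and medians without a set test. Named genes were the members of the pairs, the 4 members of each list with the highest mean CPM, up to 3 called against the majority of the list, all members of the lists marked for it, the 12 largest log2 FCs per direction (mean log2 CPM of at least 5, no overlap) and the 10 highest genes per kilobase in each tissue. Positions are mm10, and promoters are RefSeq's on GRCm38.p6.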

Additional observations from a re-analysis of the deposited data

Results flagged for a closer look

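In 21 of 163 named genes, 1 of the 4 fat libraries stood so far from the others that the gap to its neighbor took most of their range (above Dixon's 95% critical value). For normal values chance alone gives about 1 in 20. The ratios were taken on CPM, and the genes are not independent and were partly named for their values. The share flagged is therefore a description and not a test against chance. Fat 8 was the highest in 13 of them, mostly genes of muscle fibers, with CPM of Actn2 (1.71), Atp2a1 (21.2), Eef1a2 (1.09), Mybpc2 (5.17), Myh4 (39.2), Mylpf (8.28), Pfkm (57.8), Pvalb (7.4), Tcap (2.06), Tnni2 (7.99), Tnnt3 (17.1), Tpm1 (561) and Ttn (13.4). Fat 6 was the highest in 7, with CPM of Acaca (465), Adrb3 (597), Aldoa (901), Fasn (2727), Insr (159), Npr3 (785) and Scd1 (21973). Fat 7 was the lowest for Tnnc1 (0.0731). The source of these transcripts was not tested.

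Signal outside the comparison was found in genes listed in 1 table alone. Gpx5, a secreted peroxidase of the epididymis, had a mean of 16831 table CPM in no tumor fat, and Cox6a2, a muscle subunit of cytochrome oxidase, had 859.96 in no tumor quadriceps. Both are far above the limit of 3 counts. The other table does not list them, so no level in the other tissue was analysed here.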

How the results depend on the processing

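No paired analysis was possible because the libraries of the tissues share no replicate number. With 1 library left out, 3253 to 3632 genes were higher in quadriceps and 2994 to 4146 higher in fat, 620 to 685 and 453 to 617 at 8-fold. In KPC IL6KO mice the calls numbered 7385 to 8233, beside 7983. Of 34 lists with at least 5 tested genes, 25 had more members called higher in quadriceps (23 to 27 with 1 library left out). By library totals alone the values were 1300, 8212, 320, 1776 and 14 lists, and 13.7% of calls were higher in quadriceps (38% by upper quartile, 49.3% by TMM). The other alternatives moved no total by over 1.5 times. Of the values under alternatives for lists and named genes, 3975 kept direction and side of the threshold, 122 lost a call, 71 gained one, 76 (list medians) moved by more than the spread between replicates and 60 changed sign. Sign changes, as log2 FC or list median, were as follows. By library totals alone they were insulin action and glucose uptake -0.84, preadipocyte and fibroblast -0.93, collagen and matrix -0.68, neutrophil and mast cell -1.04, endothelial -0.37, Schwann cell -0.81, IL-6 family receptors and JAK-STAT -0.91, hormone and growth factor receptors -0.98, secreted factors of muscle and fat -1.07, cytosolic ribosomal proteins -1.19, proteasome subunits -0.26, Cma1 -0.61, Col3a1 -0.77, Il11ra1 -0.033, Il6st -0.26, Insr -0.98, Jak1 -0.46, Mef2a -0.89, Pnpla2 -0.84, Rpl4 -1.02, Stat3 -1.14. With fat 5 and fat 7 alone they were lipid droplet and lipolysis 0.72, lipid uptake and binding 0.43, fatty acid and triglyceride synthesis 0.074, positional homeobox and T-box 0.51, cytosolic ribosomal proteins -0.080, Acaca 0.074, C3 0.44, Cd36 0.011, Cfd 0.50, Cidec 0.28, Fasn 0.21, Lipe 0.40, Lpl 0.020, Plin1 0.86, Pmp22 0.58, Rpl4 -0.14, Stat3 -0.16. With fat 6 and fat 8 alone they were collagen and matrix -0.15, neutrophil and mast cell -0.39, hormone and growth factor receptors -0.034, secreted factors of muscle and fat -0.33, Col3a1 -0.22, Pnpla2 -0.47. With 1 library left out the values that changed sign ranged over Fasn -1.23 to 0.077, Plin1 -2.16 to 0.18, Pmp22 -0.43 to 0.23, cytosolic ribosomal proteins -0.027 to 0.17, lipid droplet and lipolysis -1.31 to 0.18, lipid uptake and binding -0.20 to 0.29, secreted factors of muscle and fat -0.00498 to 0.42. By upper quartile they were neutrophil and mast cell -0.035, secreted factors of muscle and fat -0.095, cytosolic ribosomal proteins -0.17, Stat3 -0.12. Ribosomal scaling gave cytosolic ribosomal proteins -0.022, whole-table totals lipid uptake and binding 0.16, and limma voom lipid uptake and binding 0.038, Pmp22 0.017. The cause of each was not tested. At totals of 19259763 counts or more, genes under 0.274 CPM in a tissue have a fold change that rests on few counts.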

Other observations

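Some genes of peripheral nerve were higher in quadriceps than in fat. Of 7 tested Schwann cell genes, 3 were called higher in quadriceps (28.7% of all genes were) and 0 higher in fat. Prx, which supports the myelin sheath, had 23.3, 31.5 and 17.2 CPM in quadriceps 1 to 3 and 2.88, 3.26, 3.29 and 4.41 CPM in fat 5 to 8 (log2 FC 2.79, SE 0.26, FDR 0.000117, edgeR quasi-likelihood test). Mbp, myelin basic protein, had 46.3, 73.9 and 34.4 against 10.8, 31.4, 8.81 and 21.2 (log2 FC 1.51, SE 0.48, FDR 0.0286), and Pmp22, which fibroblasts also make, had 64.1, 90.8 and 54.5 against 48.7, 153, 37.5 and 81.5 and was not called (log2 FC -0.20, SE 0.49, FDR 0.739). Quadriceps 2 was the highest of the muscles in each, as it was in Adipoq. Mbp lost its call without quadriceps 1 or 2 or fat 5 (FDR 0.059 to 0.107).

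Of 11 lymphocyte genes, 9 were listed in the fat table alone, with Ms4a1 of B cells at 0.66, 3.68, 0.276 and 2.65 and Cd3e of T cells at 1.63, 0.526, 0.943 and 0.639 table CPM in fat 5 to 8. The 4 T cell markers together had 3.13, 3.51, 2.53 and 3.53 table CPM, so the order of Cd3e was not that of the set. Among 6 tested neutrophil and mast cell genes 0 were called higher in quadriceps and 2 higher in fat (1 and 2 without fat 8). Of all genes 28.7% and 29.4% were. The mast cell chymase Cma1 had 4.55, 4.2 and 3.84 CPM in quadriceps and 0.929, 3.18, 1.39 and 4.9 in fat (log2 FC 0.69, SE 0.55, FDR 0.311), and Kit, a receptor that epithelia and mast cells make, had 3.67, 4.31 and 2.74 against 37.5, 17.4, 24.5 and 16.4 and was highest in fat 5 and fat 7 (log2 FC -2.73, SE 0.36, FDR 0.000583, and with fat 6 and fat 8 alone log2 FC -2.25, FDR 0.000668). Alas2, which makes heme in red cell precursors, had 4.05, 4.59 and 3.47 against 5.21, 18.5, 6.52 and 14 (log2 FC -1.45, SE 0.48, FDR 0.0324). Alas2 lost its call without quadriceps 1, 2 or 3 or fat 8 (FDR 0.0686 to 0.10).

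Of 74 ribosomal protein genes 15 were called higher in quadriceps and 3 higher in fat, beside 28.7% and 29.4% of all genes. The counts were 1 and 61 by library totals alone, 5 and 12 by upper quartile, 11 and 10 without fat 6, and 14 and 1 without quadriceps 2. Rps2 had 869, 773 and 817 CPM in quadriceps against 291, 268, 344 and 289.9 in fat (log2 FC 1.46, SE 0.16, FDR 0.000271), while Rpl10 had 390.04, 374 and 438 against 791, 539.6, 824 and 632 (log2 FC -0.80, SE 0.21, FDR 0.0139). Rpl4, with 987, 962 and 1120.5 against 1055, 615, 1005 and 705, was not called (log2 FC 0.28, SE 0.26, FDR 0.377). Rpl10 lost its call without quadriceps 1 or 2 (FDR 0.0668 to 0.0689). Copies of these genes elsewhere in the genome make counts of uniquely mapped reads uncertain. By library totals alone the log2 FCs of Rps2, Rpl10 and Rpl4 were 0.16, -2.10 and -1.02.

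Of the histone genes, Hist1h1c, a linker histone, had 226, 192 and 226 CPM in quadriceps and 14.5, 23.5, 19.7 and 19 in fat (log2 FC 3.49, SE 0.19, FDR 1.83e-05), and Hist2h2be, the gene of the list called higher in fat, had 13.2, 14.8 and 12.4 against 25.1, 16.3, 22.2 and 20.1 (log2 FC -0.63, SE 0.18, FDR 0.0171), a call lost without quadriceps 1, quadriceps 3 or fat 5, in the last case because the FC fell under 1.5. In KPC IL6KO mice the log2 FC of Hist1h1c was 3.19 (FDR 2.87e-06).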
